A study of Mus musculus with 2 samples.

Results

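The nuclear-encoded genes of the mitochondrial respiratory chain were followed in γδ T cells sorted from mouse lung and sequenced as single cells. The genes were taken by symbol: every measured gene whose symbol begins with Nduf, Uqcr, Atp5 or Cox4 to Cox8, together with Sdha, Sdhb, Sdhc and Sdhd, leaving out pseudogene symbols. This gave 93 of 32285 genes, of which 38 belong to complex I, 4 to complex II, 8 to complex III, 18 to complex IV and 17 to complex V, and 8 are Ndufaf genes, the assembly factors of complex I. Ndufa4 is counted with complex I because of its symbol, although its product is now placed with complex IV. Cox7a2l, counted with complex IV, encodes a factor described as holding complexes III and IV together in supercomplexes. Supercomplexes were not measured here, and whether the factor acts so in these mice was not tested.

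The study compared γδ T cells that use different Vγ chains of the T cell receptor. The WT library came from γδ T cells lacking surface Vγ1 of C57BL/6NCrl mice, and the KO library from γδ T cells bearing Vγ1 of B6.Cg-Tcrgtm1lku(B6.Vg4-/-Vg6-/-) mice, whose germline lacks the Vγ4 and Vγ6 gene segments. All mice were uninfected and 5 to 7 weeks old. Each group was 1 library, and the number of mice behind it is not given in the sources used here. Genotype, strain label, sort gate and library differ together between WT and KO and cannot be told apart.

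The WT library held 2520 barcodes and 9173997 unique molecular identifiers (UMIs, each marking 1 captured transcript), and the KO library 6688 barcodes and 26436826 UMIs; 23 barcodes occurred in both. After the study's filter on genes and mitochondrial UMIs and a gate that asked for a T cell UMI and fewer than 3 myeloid or B cell UMIs, 2237 WT and 6357 KO cells remained, with medians of 3376 and 3566 UMIs. Before the gate, 228 of 2505 WT and 233 of 6634 KO cells had no UMI of the T cell genes, and 102 and 75 had 3 or more myeloid or B cell UMIs. In the gated cells the myeloid and B cell markers together stayed between 18.4 and 28.4 counts per 1000000 UMIs (CPM) in the 9 groups of cells compared, and S100a8 and Ms4a1 were at 0. The gate itself keeps these markers low. The epithelial markers Sftpc, Scgb1a1 and Epcam, which the gate does not use, summed to 16.1 CPM in all gated WT cells and 24.2 in KO. Scgb1a1 had 1.21 and 15.9 CPM, while Epcam went the other way, at 14.5 and 5.85. In the KO library no cell held a Tcrg-V6 UMI, which allows a share of up to 0.0472%, but 15.1% of the cells held a Tcrg-V4 UMI, against 22.9% in WT. The Tcrg-V4 UMIs go against the genotype, so KO below means the library labelled KO. Where these UMIs come from was not tested.

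The respiratory chain moves electrons from NADH (complex I) and succinate (complex II) through ubiquinone, complex III and cytochrome c to oxygen at complex IV. Complexes I, III and IV pump protons, and complex V, the ATP synthase, lets them flow back to make ATP. Apart from complex II, each complex joins subunits encoded in the nucleus with a few encoded in mitochondrial DNA. In γδ T cells, IL-17 producers are known for oxidative metabolism and IFN-γ producers for glycolysis. Tmem176b, an ion channel-like membrane protein, marks the IL-17 type, and Ly6c2, which encodes Ly6C, marks memory-like cells of the other type.

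Because each group is 1 library, no test between samples was possible. Values are summed UMIs over the cells of a group, given as a percentage of all UMIs or, for single genes, as CPM, and ratios are on the log2 scale. The 95% intervals in parentheses are exact and cover counting error only, not variation between mice or libraries. UMI counts were not divided by gene length, since each UMI marks 1 transcript whatever its length.

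Across all gated cells the 93 genes took 1.63% of UMIs in WT (1.63 to 1.64) and 1.77% in KO (1.77 to 1.78). Complex V took the most, with 0.590% in WT and 0.610% in KO, followed by complex I with 0.438% and 0.492%, complex IV with 0.396% and 0.437% and complex III with 0.155% and 0.179%. Complex II, with 4 genes, took 0.0359% and 0.0368%. The assembly factors of complex I took 0.0179% in WT and 0.0180% in KO. The order of the complexes was the same in both libraries.

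Levels differed widely between the genes of a complex. In complex I the most abundant were Ndufa4, at 371 CPM in WT and 399.9 in KO, Ndufa13, an accessory subunit also known as a cell death regulator, at 301 and 323, and Ndufb11, encoded on the X chromosome, at 264 and 291. In complex II, Sdha, the flavoprotein that oxidizes succinate, had 123 and 111 CPM and Sdhb, the iron-sulfur subunit, 117 and 139. In complex III, Uqcrh, the hinge protein that contacts cytochrome c1, alone held 31.9% of the complex's UMIs in WT and 33.1% in KO, at 496 and 590.0 CPM. Uqcrfs1, the Rieske iron-sulfur protein, followed at 198 and 195. In complex IV, Cox4i1 and Cox8a led with 721 and 635 CPM in WT and 746 and 731 in KO. In complex V, Atp5d, the δ subunit of the central stalk, had 609 and 569 CPM, Atp5b, the catalytic β subunit, 530.1 and 564, and Atp5g3, 1 of 3 genes for the c ring, 528 and 563.

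The c ring genes were all in use, with Atp5g2 at 353 and 365 CPM and Atp5g1 at 190.1 and 166. The isoforms known from muscle, lung, testis or hypoxic cells were at or near 0. Over all gated cells, Cox6a2 had 3 UMIs in WT and 3 in KO, Cox4i2 1 and 2, Cox8b 0 and 1, Cox8c 0 and 0, Ndufa4l2 0 and 1, and Cox7b2 8 and 4. Cox7a1 had 10 and 20 UMIs, against 2040 and 7198 for its widely used counterpart Cox7a2. Cox6b2 had 15 UMIs in WT (1.81 CPM) and 99 in KO (3.92 CPM), against 2220 and 7585 for Cox6b1. A count of 3 corresponds to 0.363 CPM in WT and 0.119 in KO, and isoforms at or under it cannot be told from 0 at this depth.

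In the WT library, cells with UMIs of Tcrg-V6 and of no other Tcrg-V gene (501 cells) gave more of their UMIs to the respiratory chain than cells with only Tcrg-V4 (389 cells). The share was 1.76% (1.74 to 1.78) against 1.58% (1.56 to 1.60), a log2 ratio of 0.16 (0.13 to 0.18). Both groups come from the same library, so they share genotype, sort and preparation. The difference was seen in complex I, 0.479% against 0.422%, with a log2 ratio of 0.18 (0.14 to 0.23). Complex IV, 0.427% against 0.379%, had a log2 ratio of 0.17 (0.12 to 0.22), and complex V, 0.637% against 0.571%, one of 0.16 (0.12 to 0.20). Complex III had a smaller ratio of 0.09 (0.01 to 0.17). Complex II went the other way, at -0.13, but its interval reached 0 (-0.30 to 0.04).

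**Figure D1:**
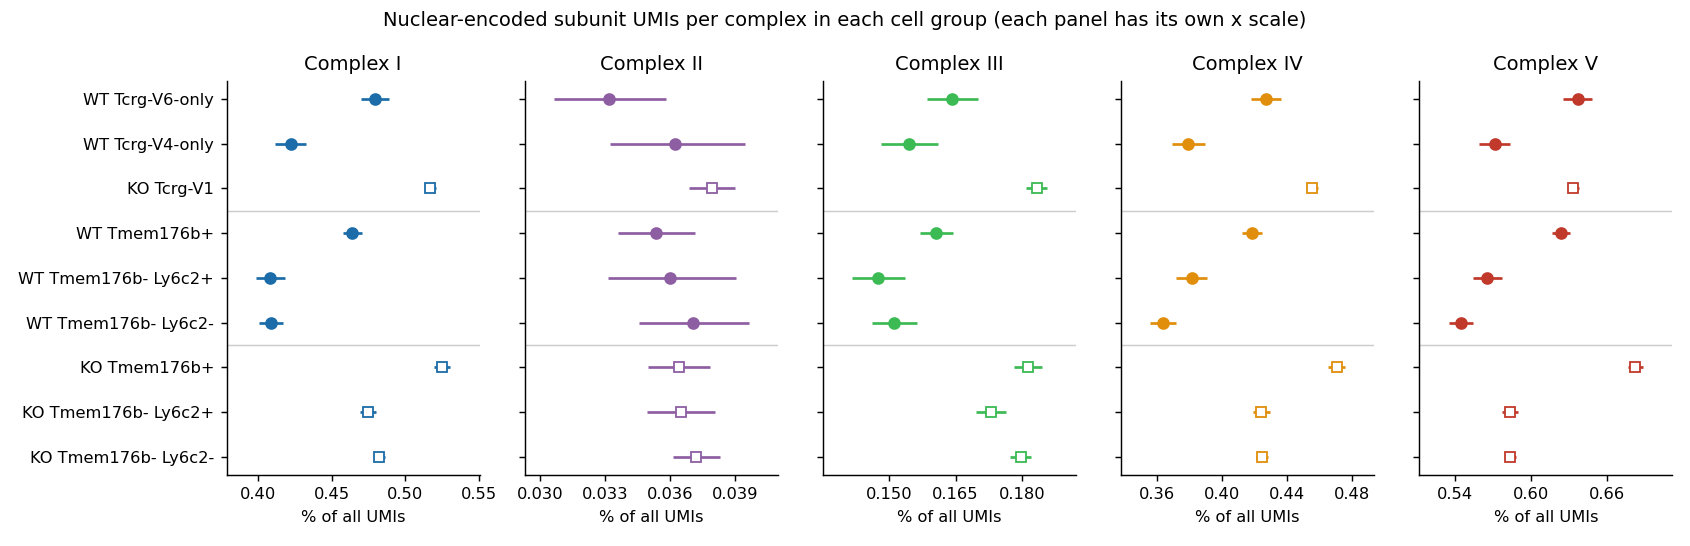
UMIs of each complex in percent of all UMIs (x axis, scaled for each panel) in 9 groups of cells, with exact 95% counting intervals; circles are WT and squares KO, and the groups of the top block share cells with those below. Tmem176b+ cells lie to the right of both Tmem176b- groups in complexes I, IV and V of each library, while the intervals overlap in complex II.

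Of the 93 genes, 78 had at least 100 UMIs in the Tcrg-V6-only and Tcrg-V4-only cells together. Among these, 17 were at least 25% higher in Tcrg-V6-only cells (9 of 36 in complex I, 1 of 8 in complex III, 3 of 11 in complex IV and 4 of 17 in complex V) and 2 at least 20% lower, where 21.7% and 18.3% of the 4848 genes that passed the same minimum were. The share of members that were higher is thus near that of all genes, while the share that were lower is below it. Their median log2 ratio was 0.13 against 0.01 for all genes, and 59 of the 78 lay above 0. The share of all genes above 0 is not given here, so that count does not set the members apart from other genes.

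Ndufa13 had the highest ratio, with 391 CPM in Tcrg-V6-only and 268 in Tcrg-V4-only cells (log2 ratio 0.54, 0.37 to 0.72). Ndufs5, a subunit on the intermembrane side of complex I, had 129 and 89.8 CPM (0.52, 0.21 to 0.84), and Ndufv3, a subunit of the NADH-binding arm, 192 and 136 (0.50, 0.25 to 0.75). Ndufs8, an iron-sulfur protein, and Ndufa10 had log2 ratios of 0.54 (0.13 to 0.96) and 0.51 (0.14 to 0.88). Outside complex I, Uqcr11 had a log2 ratio of 0.49 and Atp5j, which encodes coupling factor 6 of the peripheral stalk, 0.46. Atp5d had 0.45, Cox6c 0.44, Atp5md 0.44 and Cox5a 0.43, and all these genes had intervals above 0. Without Atp5md the complex V ratio was 0.13 (0.09 to 0.17). Cox7a2l had the lowest ratio, with 214 CPM in Tcrg-V6-only and 303 in Tcrg-V4-only cells (-0.50, -0.70 to -0.31). Sdha was next, with 104 and 133 CPM (-0.35, -0.64 to -0.06), while Sdhc, Ndufb3 and Ndufv1 had ratios of -0.31, -0.31 and -0.30 whose intervals included 0.

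**Figure D2:**
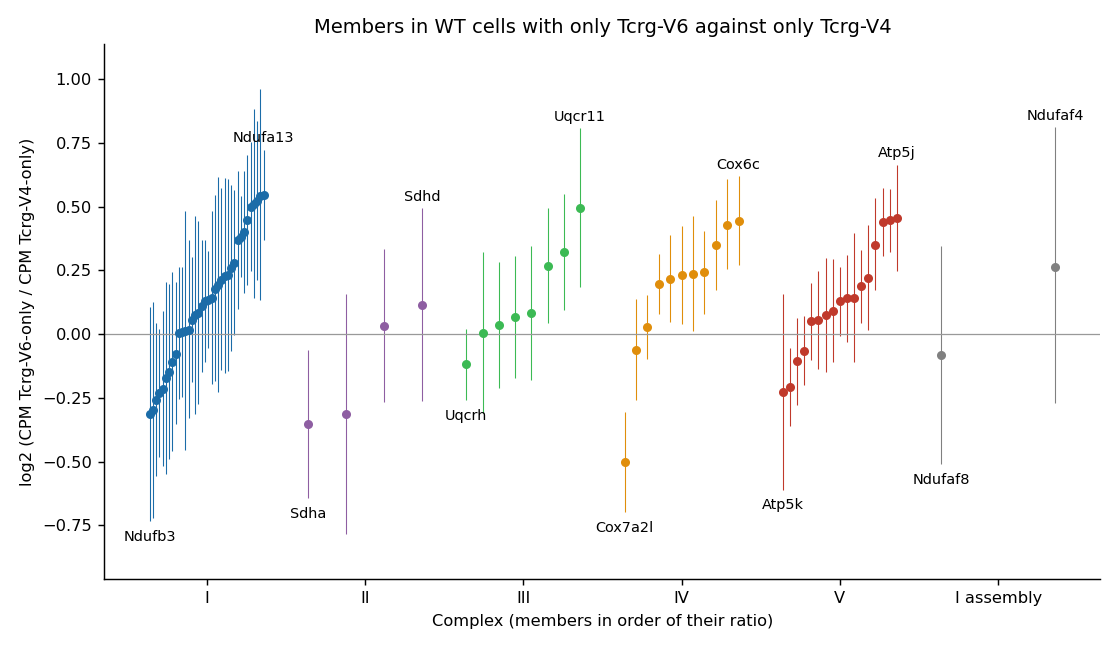
Log2 ratio of CPM (y axis) in Tcrg-V6-only over Tcrg-V4-only WT cells for the 78 genes with at least 100 UMIs, in order of the ratio within each complex (x axis); bars are exact 95% counting intervals. Most points lie above 0, Ndufa13 is highest at 0.54 and Cox7a2l is lowest at -0.50.

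Among neighbouring gene groups, the 13 subunits encoded in mitochondrial DNA took less of the UMIs of Tcrg-V6-only cells, 1.34% against 1.56%, with a log2 ratio of -0.22 (-0.25 to -0.20), and all 12 with at least 100 UMIs lay below 0. The nuclear-encoded genes together therefore had 1.31 UMIs for each mitochondrially encoded UMI in Tcrg-V6-only cells and 1.01 in Tcrg-V4-only cells. Genes of the tricarboxylic acid cycle had a log2 ratio of -0.03 (-0.12 to 0.06), the mitochondrial ribosome 0.08 (0.03 to 0.13) and the proteasome, a housekeeping complex, 0.07 (0.03 to 0.12). Cytosolic ribosomal protein genes took 16.0% of UMIs in Tcrg-V6-only and 20.0% in Tcrg-V4-only cells, a log2 ratio of -0.32. A share of all UMIs moves when so large a group moves, and with ribosomal protein and mitochondrially encoded UMIs taken out of the total the log2 ratio of the 93 genes fell to 0.08. The 2 groups differed in type: the 7 markers of the IL-17 type summed to 2208 CPM in Tcrg-V6-only and 889 in Tcrg-V4-only cells, and 89.6% and 42.7% of the cells held a Tmem176b UMI.

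Tmem176b detection separated the cells in the same direction in both libraries. In WT, 1136 cells with a Tmem176b UMI gave 1.72% (1.71 to 1.73) of their UMIs to the 93 genes and 1101 cells without gave 1.54% (1.52 to 1.55). In KO the values were 1.92% (1.91 to 1.93) in 1480 cells with and 1.72% (1.71 to 1.73) in 4877 cells without. The log2 ratios were 0.16 (0.15 to 0.18) in WT and 0.16 (0.15 to 0.16) in KO. Cells thinned to 2000 UMIs each held a median of 34 respiratory chain UMIs with Tmem176b and 31 without in WT, and 38 and 34 in KO. The quartiles were 28 to 40 and 26 to 36 in WT.

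By complex, the Tmem176b log2 ratio in WT was 0.18 for complex I, 0.10 for complex III, 0.17 for complex IV and 0.17 for complex V. In KO it was 0.13 for complex I, 0.03 (0.00 to 0.06) for complex III, 0.15 for complex IV and 0.23 for complex V. Complex II, the complex that also serves the tricarboxylic acid cycle and has no mitochondrially encoded subunit, stood at -0.05 (-0.16 to 0.05) in WT and -0.02 (-0.09 to 0.04) in KO. Its subunits did not move as 1 group: Sdhc, a membrane anchor, was higher with Tmem176b in both libraries (0.42 and 0.34). Sdhb had -0.18 in WT, with an interval that just included 0 (-0.37 to 0.00), and -0.20 in KO.

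In WT, 23 of 82 genes compared were at least 25% higher in Tmem176b+ cells and 3 at least 20% lower, where 19.0% and 27.1% of all 7316 genes compared were. In KO, 12 of 85 were higher and 3 lower, where 17.7% and 24.8% of 9537 genes were. The share of members called higher was above that of all genes in WT and below it in KO. The median log2 ratio of the members was 0.10 in WT and 0.10 in KO, while that of all genes was -0.08 in each. Of 82 genes compared in both libraries, 28 had intervals above 0 in both, made up of 12 of complex I, 1 of complex II, 3 of complex III, 7 of complex IV, 4 of complex V and 1 assembly factor. A further 4 had intervals below 0 in both, namely Cox7a2l, Ndufa6, Uqcrh and Atp5a1, which encodes the α subunit of the ATP synthase. The share of all genes with such intervals is not given here, and counting intervals narrow as UMIs rise. These counts therefore do not set the members apart from other genes. The 7 of complex IV came out of 11 compared and were Cox4i1, Cox5a, Cox6a1, Cox6b1, Cox6c, Cox7b and Cox7c.

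**Figure D3:**
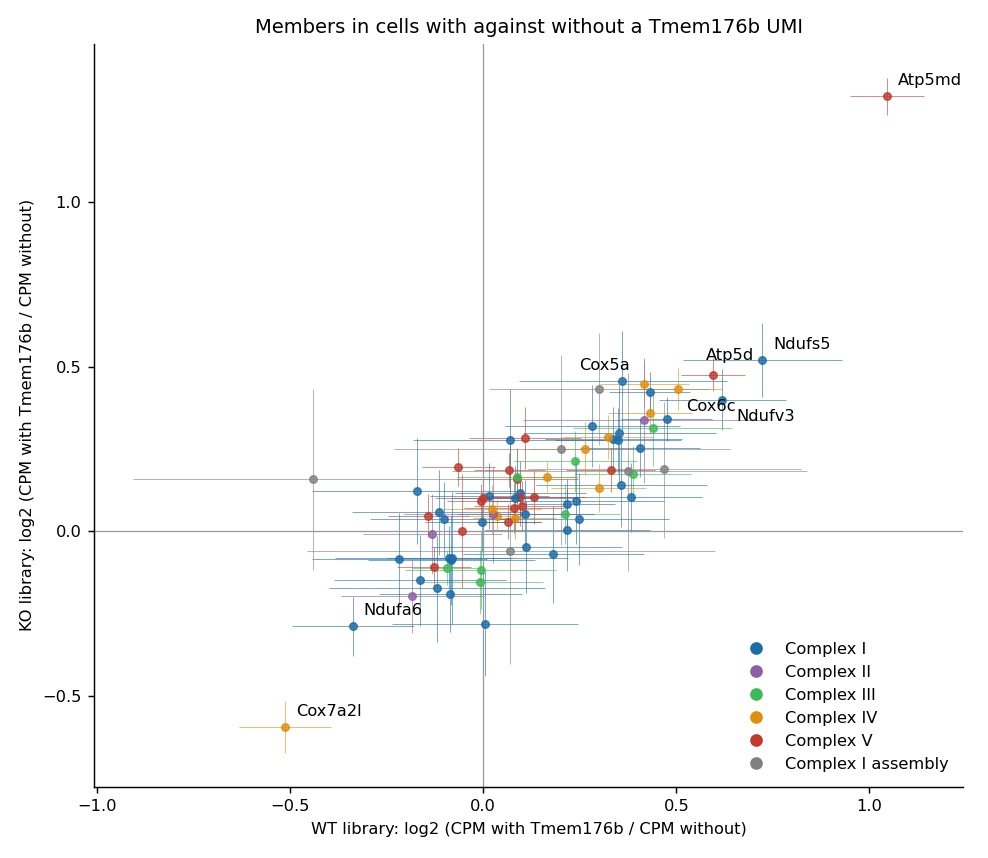
Log2 ratio of CPM in cells with over cells without a Tmem176b UMI, in the WT library (x axis) and the KO library (y axis), for the 82 genes compared in both; bars are exact 95% counting intervals and colours mark the complex. Atp5md stands alone at the upper right (1.04 and 1.32) and Cox7a2l at the lower left (-0.51 and -0.59).

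Atp5md stood far from the other genes. It encodes DAPIT, a small subunit in the membrane part of the ATP synthase that is known for its part in joining the enzyme into dimers. It lies on the minus strand of chromosome 19 from 47083464 to 47090647 in GRCm38, where its annotated span overlaps Taf5 on the other strand. Atp5md had 673 CPM in WT cells with Tmem176b and 326 in those without, and 719 and 288 in KO. The log2 ratios were 1.04 (0.95 to 1.14) and 1.32 (1.27 to 1.38), against a next highest of 0.72 in WT and 0.52 in KO, both of Ndufs5. Without Atp5md the complex V ratio fell to 0.10 (0.07 to 0.12) in WT and 0.14 (0.12 to 0.16) in KO, and that of all members to 0.14 and 0.12.

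The level of Atp5md differed more by Tmem176b detection than by receptor chain. Among cells with Tmem176b it had 691 CPM (653 to 731) in Tcrg-V6-only WT cells, 678 (613 to 747) in Tcrg-V4-only WT cells and 737 (712 to 763) in KO cells with Tcrg-V1. Among Tcrg-V4-only cells without Tmem176b it had 280 (231 to 336) in those with a Ly6c2 UMI and 448 (390.0 to 513) in those with neither. The KO Tcrg-V1 cells without Tmem176b had 253 (235 to 273) with Ly6c2 and 320 (306 to 334) with neither. The 3 groups with Tmem176b thus lay above all groups without it, and in each library the cells with Ly6c2 were lowest. The Tcrg-V4-only groups without Tmem176b also differed in IL-17 type markers, at 27.0 CPM with Ly6c2 and 613 with neither. Within Tcrg-V4-only cells the Tmem176b log2 ratio of Atp5md was 0.87 (0.66 to 1.09), the highest of 66 genes compared there.

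Ndufs5 had 127 CPM in WT Tmem176b+ cells and 77.1 in Tmem176b- cells, and 144 and 100.4 in KO (log2 ratios 0.72 and 0.52). Atp5d had 724 and 479 in WT and 716 and 515 in KO (0.60 and 0.48). Ndufv3 had ratios of 0.62 and 0.40, Cox6c 0.50 and 0.43, Ndufa13 0.47 and 0.34, Cox5a, which encodes a matrix-facing subunit of complex IV, 0.42 and 0.45, and Ndufa4 0.43 and 0.42, in WT and KO. Each of these was higher in both libraries by more than its counting error. Atp5d, Cox6c and Ndufa13 overlap other annotated genes (Cbarp, Vps13b and Tssk6) on the opposite strand, whose reads these counts may not separate. In 8 other choices of cells and of the denominator, the log2 ratio of Atp5md stayed between 0.78 and 1.28 in WT and between 1.04 and 1.46 in KO, and that of Ndufs5 between 0.53 and 0.88 and between 0.40 and 0.62.

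Cox7a2l had the lowest Tmem176b ratio of the members compared in both libraries. It lies on the minus strand of chromosome 17 from 83501918 to 83517330, and no other annotated gene overlaps it. It had 235 CPM in WT cells with Tmem176b and 335 in those without, and 241 and 364 in KO, for log2 ratios of -0.51 (-0.63 to -0.39) and -0.59 (-0.67 to -0.52). Its relative Cox7a2, a subunit of complex IV itself, had 248 and 245 CPM in WT and 295 and 281 in KO, with log2 ratios of 0.02 (-0.11 to 0.15) and 0.07 (-0.01 to 0.14). Without Cox7a2l the complex IV ratio was 0.23 (0.19 to 0.26) in WT and 0.20 (0.18 to 0.22) in KO. Cox7a2l was lowest in Tcrg-V6-only cells with Tmem176b, at 205 CPM (184 to 227), and highest in KO Tcrg-V1 cells with neither marker, at 393 (377 to 409). Ndufa6, a LYR-motif subunit in the peripheral arm of complex I, had 143 and 181 CPM in WT and 196 and 240 in KO cells with and without Tmem176b (-0.34, -0.50 to -0.18, and -0.29, -0.38 to -0.20). In 8 other choices of cells and of the denominator the ratios of Cox7a2l and Ndufa6 remained below 0 in both libraries.

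**Figure D4:**
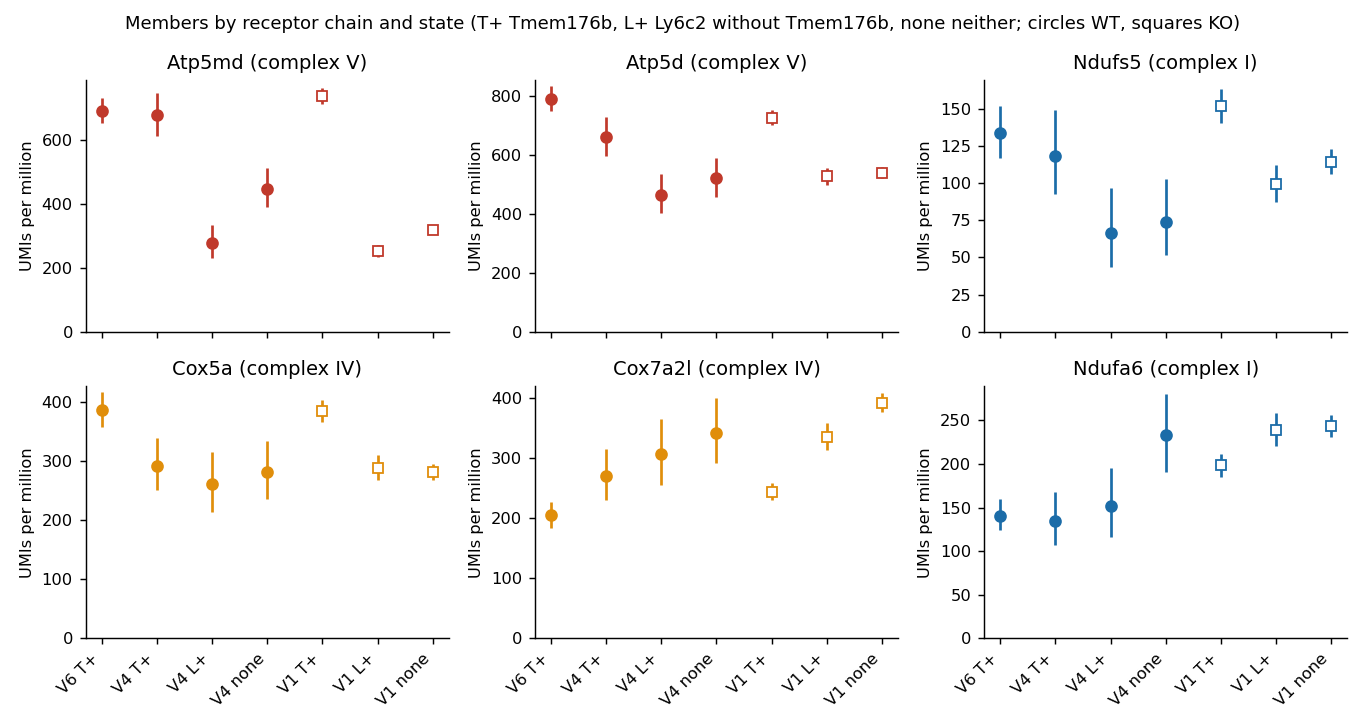
CPM (y axes, each from 0) of 6 genes in 7 groups of cells (x axis) set by receptor chain and by Tmem176b or Ly6c2 detection, with exact 95% counting intervals. Atp5md is at 678 to 737 in the groups with Tmem176b and at 253 to 448 in those without, while Cox7a2l is lowest, at 205, in Tcrg-V6-only cells with Tmem176b.

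The stretches of DNA just before the transcription starts are shown for some of the genes that moved with Tmem176b: Atp5md, Ndufs5, Cox5a and Ndufv3, which were higher, and Ndufa6, which was lower. The genes were set by name. Cox7a2l and Atp5d moved more than some of those shown but were not on the list. Each stretch is 120 bases long, read 5′ to 3′ on the strand of the gene (GRCm38.p6), ends just before the RefSeq or the GENCODE start, whichever lies further upstream, and capitals mark a searched motif.
Atp5md (chr19:47090648-47090767, minus strand): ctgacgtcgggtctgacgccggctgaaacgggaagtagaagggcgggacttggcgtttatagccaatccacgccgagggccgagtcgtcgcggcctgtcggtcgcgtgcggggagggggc
Ndufs5 (chr4:123718203-123718322, minus strand): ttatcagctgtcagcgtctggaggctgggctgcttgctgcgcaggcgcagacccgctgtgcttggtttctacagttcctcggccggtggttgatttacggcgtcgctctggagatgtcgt
Cox5a (chr9:57521112-57521231, plus strand): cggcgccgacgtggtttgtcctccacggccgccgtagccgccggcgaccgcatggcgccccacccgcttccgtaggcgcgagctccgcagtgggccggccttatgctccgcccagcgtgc
Ndufv3 (chr17:31519995-31520114, plus strand): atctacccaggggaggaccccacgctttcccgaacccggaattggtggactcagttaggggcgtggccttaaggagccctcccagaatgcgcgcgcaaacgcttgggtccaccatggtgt
Ndufa6 (chr15:82354323-82354442, minus strand): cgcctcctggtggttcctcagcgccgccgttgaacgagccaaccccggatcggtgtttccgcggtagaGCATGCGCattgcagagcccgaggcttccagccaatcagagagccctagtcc

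The motifs searched, on both strands, were GCATGCGC, the core bound by NRF1, a known activator of respiratory chain genes, CCGGAAGT, the core of ETS factors such as GABPA, and AAGATGGC, the core of YY1. Where motifs overlap, each is counted. RefSeq promoter windows of 300 bases were matched to 76 of the 93 genes. The NRF1 core was in 12 of these (15.8%) against 3.05% of 27025 genes, the YY1 core in 11 (14.5%) against 3.19%, and the ETS core in 5 (6.58%) against 4.31%. Any of the 3 was in 27 members (35.5%) against 9.91% of all genes. Of the 24 genes with a window that were higher with Tmem176b in both libraries 5 held a motif, of the 3 that were lower 2 did, and of the 43 other genes compared 20 did. In Ndufa6 the NRF1 core begins 83 bases before the RefSeq start, which lies downstream of the GENCODE start where the printed stretch ends, and in the other 4 stretches printed none of these letters was found. Stretches read for Uqcr11 and Atp5k are not printed. That of Uqcr11, which was higher with Tmem176b in both libraries (0.44 and 0.31), held the ETS core, and that of Atp5k held no motif. In their whole windows of 300 bases, on which the counts above rest, Uqcr11 and Atp5k also held the NRF1 core.

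The Tmem176b difference was also present within each receptor chain. Among Tcrg-V4-only cells the share was 1.64% in 166 cells with and 1.54% in 223 cells without Tmem176b (log2 ratio 0.09, 0.05 to 0.13). It was 1.78% and 1.56% among Tcrg-V6-only cells (0.19, 0.13 to 0.25, with 52 cells without), and 1.97% and 1.78% among KO Tcrg-V1 cells (0.14, 0.13 to 0.15). Without Atp5md the complex V ratio was 0.03 (-0.04 to 0.10) within Tcrg-V4-only cells, an interval that includes 0. It was 0.15 (0.05 to 0.25) within Tcrg-V6-only and 0.13 (0.11 to 0.15) within KO Tcrg-V1 cells. Among Tmem176b+ cells the Tcrg-V6-only cells exceeded the Tcrg-V4-only cells by 0.12 (0.08 to 0.15). These groups share only the detection of Tmem176b, since their IL-17 type markers summed to 2293 and 1692 CPM and their stress genes to 5068 and 6940 CPM. In that contrast Cox7b, 220 against 155 CPM, and Ndufa13, 401 against 293, were among the highest genes, and Cox7a2l, 205 against 270, among the lowest.

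Several measures moved with Tmem176b. The IL-17 type markers summed to 2051 CPM with and 331 without Tmem176b in WT, and to 1190 and 67.1 in KO. A large part of these sums came from Tmem176a, at 657 and 55.3 CPM in WT and 612 and 24.5 in KO. The other markers of the list were also higher with Tmem176b in both libraries. Genes of the stress response to tissue dissociation, such as Fos and Hspa1a, summed to 5930 and 3770 CPM in WT and 5076 and 3302 in KO, and without the cells of high stress share the respiratory chain ratio was 0.21 in WT and 0.17 in KO. Median depth was 3553 against 3217 UMIs in WT and 4200.5 against 3387 in KO. The share of the 93 genes was lower in shallow cells, at 1.28% in WT cells of 1000 to 2000 UMIs against 1.71% above 7000. Within the same range of depth Tmem176b+ cells had the higher share in all 5 ranges in WT and in 4 of 5 in KO. The exception was 47 KO cells of 1000 to 2000 UMIs, at 1.28% against 1.42%. Ribosomal protein genes took 16.9% and 20.4% of UMIs with and without Tmem176b in WT and 18.1% and 20.6% in KO, and with these and the mitochondrially encoded genes taken out of the total, the log2 ratio was 0.10 in WT and 0.11 in KO. The part of ribosomal, stress and depth differences in the remaining ratio was not tested.

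The 13 mitochondrially encoded subunits did not follow their nuclear partners. Their sum was lower with Tmem176b in WT, at 1.41% against 1.64% (log2 ratio -0.22, -0.23 to -0.20), and nearly level in KO, at 1.54% against 1.57% (-0.03, -0.04 to -0.02). The nuclear-encoded genes had 1.22 UMIs for each mitochondrially encoded UMI with Tmem176b and 0.936 without in WT, and 1.245 and 1.09 in KO. Mitochondrial ribosome genes had log2 ratios of 0.07 and 0.05, the proteasome 0.01 and -0.05 and the tricarboxylic acid cycle -0.07 and 0.02. A list of 12 electron carriers, transporters and coupling proteins had higher sums with Tmem176b, at 0.33 (0.29 to 0.37) and 0.23 (0.21 to 0.26). In each library 3 genes of the list were at least 25% higher, where 19.0% of all genes compared were in WT and 17.7% in KO. In so short a list this count does not set its genes apart from other genes. Among the genes of the list, named after their values were seen, Etfb, a subunit of the electron transfer flavoprotein of fatty acid oxidation, had 60.0 and 30.2 CPM in WT and 69.0 and 34.1 in KO. Ucp2, an inner membrane carrier, had 457 and 290 in WT and 465 and 330 in KO. Atpif1, the inhibitor of the ATP synthase, was lower with Tmem176b, at 68.1 and 97.3 in WT and 98.1 and 132 in KO.

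**Figure D5:**
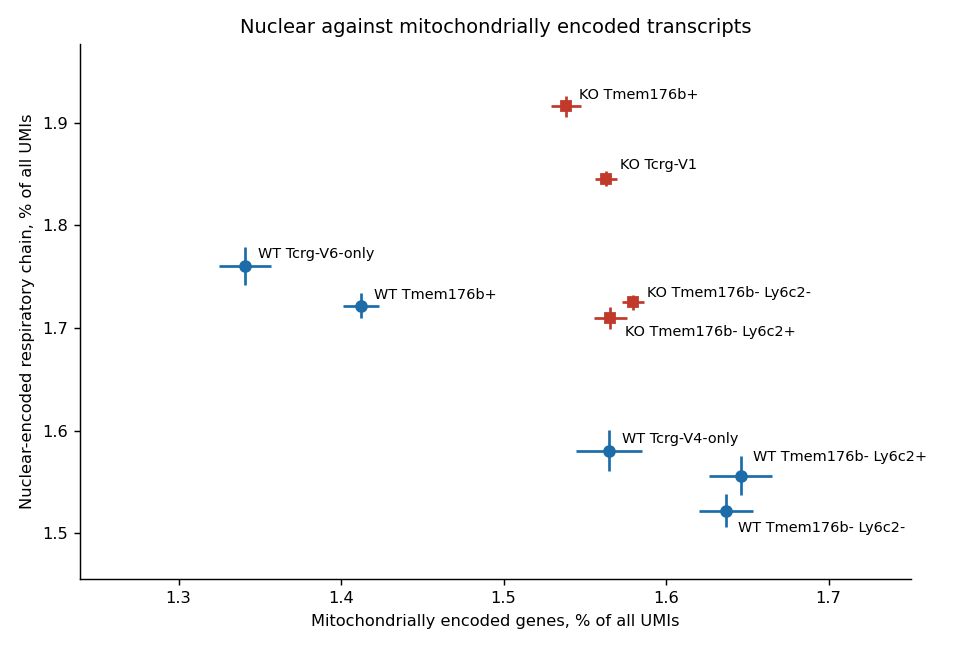
Share of all UMIs taken by the 93 nuclear-encoded genes (y axis) and by the 13 mitochondrially encoded subunits (x axis) in 9 groups of cells, with exact 95% counting intervals; circles are WT and squares KO. WT groups run from 1.34% mitochondrially encoded and 1.76% nuclear-encoded in Tcrg-V6-only cells to 1.64% and 1.52% in cells without Tmem176b or Ly6c2, while KO groups lie between 1.71% and 1.92% nuclear-encoded and 1.54% and 1.58% mitochondrially encoded.

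Among cells without Tmem176b, Ly6c2 detection made little difference to the respiratory chain as a whole. In WT the share was 1.56% in 384 cells with and 1.52% in 717 cells without Ly6c2 (log2 ratio 0.03, 0.01 to 0.06), and in KO 1.71% in 1428 and 1.73% in 3449 cells (-0.01, -0.02 to -0.00). The signs of both ratios changed under other settings, from -0.08 to 0.14 in WT and from -0.05 to 0.04 in KO, so no direction is given. Ribosomal protein genes differed strongly, with log2 ratios of 0.42 and 0.17. IL-17 type markers summed to 24.5 CPM with and 551 without Ly6c2 in WT, and to 35.9 and 81.5 in KO. The cells without Ly6c2 thus still included cells of the IL-17 type, most clearly in WT. Median depth with and without Ly6c2 was 4035.5 and 2883 UMIs in WT and 3583.5 and 3285 in KO. The part of these differences in the Ly6c2 ratios, also those of single genes, was not tested. In WT, 4 of 78 genes compared were at least 25% higher with Ly6c2 and 3 lower, where 7.20% and 30.3% of all genes were, and in KO 1 of 85 was higher and 0 lower, where 5.71% and 17.0% were. The median log2 ratio of members was -0.00 in WT and -0.02 in KO, against -0.16 and -0.09 for all genes.

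Atp5md was lower with Ly6c2 in both libraries, at 249.2 against 382 CPM in WT (log2 ratio -0.62, -0.79 to -0.44) and 254 against 303 in KO (-0.26, -0.35 to -0.17). Atp5g2 had 436 against 324 in WT (0.43, 0.28 to 0.58) and 384 against 352 in KO (0.13, 0.05 to 0.20). Atp5e, the ε subunit of the central stalk, had 528 against 406 in WT (0.38, 0.25 to 0.52) and 583 against 510 in KO (0.19, 0.13 to 0.25). Atp5h, a peripheral stalk subunit, and Cox8a were also higher with Ly6c2 in both, at 0.22 and 0.17 and at 0.25 and 0.12. Ndufs4, needed for the last step of complex I assembly, had 119 against 148 in KO (-0.31, -0.44 to -0.19). Ndufs1, the largest iron-sulfur subunit of complex I, had 33.7 against 55.0 in WT (-0.71, -1.19 to -0.24), and Ndufa12 72.3 against 48.4 (0.58, 0.19 to 0.97).

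The KO cells with Tcrg-V1 (2834 cells, of which 21.3% also held a Tcrg-V4 UMI) had the highest share of the 3 receptor groups, 1.85% (1.84 to 1.85). The log2 ratio was 0.07 (0.05 to 0.08) over Tcrg-V6-only WT cells and 0.22 (0.20 to 0.24) over Tcrg-V4-only WT cells. The ratio over Tcrg-V6-only cells was 0.0247 in cells of 2500 to 4500 UMIs and 0.14 without ribosomal and mitochondrially encoded UMIs in the total, and median depths were 4195.5 and 3626 UMIs. These comparisons share the KO cells and cross the libraries. Over Tcrg-V4-only cells the ratios were 0.29 for complex I, 0.24 for complex III, 0.26 for complex IV and 0.15 for complex V, and for complex II 0.06 (-0.06 to 0.20). Over Tcrg-V6-only cells they were 0.11, 0.16 and 0.09 for complexes I, III and IV, 0.19 (0.07 to 0.31) for complex II, and -0.01 (-0.03 to 0.02) for complex V. Without Atp5md the complex V ratio over Tcrg-V6-only cells was 0.05 (0.02 to 0.08).

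Over Tcrg-V4-only cells, 28 of 84 genes compared were at least 25% higher in KO Tcrg-V1 cells and 1 lower, where 25.5% and 14.2% of 8626 genes were. The median was 0.26 for members and 0.09 for all genes, and 77 of the 84 lay above 0, among them all 8 of complex III and all 11 compared of complex IV. The share of all genes above 0 is not given here, so these counts do not set the members apart from other genes. Atp5j had 296 CPM against 201 (0.56, 0.39 to 0.73), Cox6c 390.3 against 284 (0.46, 0.32 to 0.61) and Cox7b 248.7 against 183 (0.44, 0.26 to 0.63). Ndufb4 and Ndufaf5 had higher ratios, 1.32 (0.24 to 2.66) and 0.79 (0.01 to 1.69), at low counts. Atp5k, which encodes subunit e of the ATP synthase, was the gene called lower, with 56.9 against 74.3 (-0.38, -0.67 to -0.08).

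Over Tcrg-V6-only cells, 11 of 84 genes were at least 25% higher in KO Tcrg-V1 cells and 4 lower, where 32.1% and 20.0% of 8700 genes were, and the medians of 0.12 for members and 0.10 for all genes were close. The highest were Ndufa6, with 227 against 145 CPM (0.64, 0.47 to 0.82), and Cox7a2l, with 331 against 214 (0.63, 0.49 to 0.78). The lowest was Atp5md, with 447 against 671 (-0.59, -0.67 to -0.50), followed, among genes with intervals below 0, by the assembly factor Ndufaf2 (-0.54), Atp5d (-0.35), Cox5a (-0.25) and Atp5g1 (-0.22). Of these, Ndufa6 and Cox7a2l were lower and Atp5md, Atp5d and Cox5a higher with Tmem176b in both libraries, and Tmem176b was found in 89.6% of the Tcrg-V6-only cells and in 31.5% of the KO Tcrg-V1 cells. The part of this difference in Tmem176b detection in the ratios was not tested.

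The KO cells also had the higher share when split by the detection of Tmem176b and Ly6c2, which does not make their states equal: the IL-17 type markers summed to 1272 CPM in KO Tcrg-V1, 2293 in Tcrg-V6-only and 1692 in Tcrg-V4-only cells with Tmem176b. Among Tmem176b+ cells, KO Tcrg-V1 cells exceeded Tcrg-V6-only cells by 0.15 (0.13 to 0.16) and Tcrg-V4-only cells by 0.26 (0.23 to 0.29) on the log2 scale. Among Tmem176b- cells they exceeded Tcrg-V4-only cells by 0.19 (0.15 to 0.23) with Ly6c2 and by 0.22 (0.18 to 0.25) with neither. In Tmem176b+ cells Atp5md differed little between KO Tcrg-V1 and Tcrg-V6-only cells, at 737 and 691, while Ndufa6 kept a ratio of 0.49 (0.29 to 0.70) and Ndufa8 and Uqcrq had 0.53 and 0.45. In the same cells Cox7a2l had 0.25 (0.08 to 0.43), Atp5d -0.12 (-0.21 to -0.03) and Cox5a -0.01 (-0.14 to 0.12). All KO over all WT cells gave 0.12 (0.11 to 0.13). Stress genes summed to 3395 CPM in KO Tcrg-V1 cells, 4950 in Tcrg-V6-only and 5250 in Tcrg-V4-only cells. Y-linked UMIs were found in 0.529% of KO Tcrg-V1 cells and in 25.5% and 28.0% of the WT groups, so the mix of male and female cells also differed. In cells with Xist and no Y-linked UMI the ratios were 0.13 over Tcrg-V6-only and 0.25 over Tcrg-V4-only cells. The X-linked members Ndufa1, Ndufb11 and Cox7b had 159, 308 and 248.7 CPM in KO Tcrg-V1, 157, 283 and 216 in Tcrg-V6-only and 122, 258 and 183 in Tcrg-V4-only cells.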

How the data were processed

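Per the labels and the study's methods, lung γδ T cells were sorted by Vγ1 staining and run on a droplet platform. The authors deposited UMI counts per gene and cell made with Cell Ranger 7.0.0 (from the file headers) against mm10, with no normalization. The labels describe a 3′ protocol and the methods a V(D)J kit, which changes the end of the transcript that is counted. The 93 genes, the gene lists and the comparisons were chosen with earlier results of these data known. Cells with over 200 and under 4000 genes and under 10% mitochondrial UMIs were kept (2505 WT and 6634 KO), as in the study, then those with at least 1 UMI of Cd3e, Cd3d, Cd3g or Trdc and fewer than 3 myeloid or B cell UMIs. No doublet caller was run. Counts were summed over the cells of a group. Ratios of CPM have exact conditional binomial intervals and shares have Clopper-Pearson intervals (95%), which cover counting error only. Genes needed 100 UMIs over both groups, and at least 25% higher or 20% lower was counted as a call. Named genes were the 3 with most UMIs in each complex, tissue isoforms, X-linked members and the 5 highest and 5 lowest ratios in each comparison, with other members free to be named. Cells were thinned to 2000 UMIs without replacement (210 WT and 627 KO cells were shallower). Reads shared with pseudogenes or overlapping genes cannot be assigned from these counts. Gene positions are from GENCODE vM21 and promoter windows from RefSeq. Python 3.11.15, numpy 2.4.6, scipy 1.17.1, pandas 2.3.3 and matplotlib 3.10.9 were used, and ratios and thinning were tested on simulated data. Alternatives covered the definition of groups, the denominator, depth, the gate and the members. The values of 1 member gene are not reported here.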

Additional observations from a re-analysis of the deposited data

Results flagged for a closer look

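The Ly6c2 contrast among cells without Tmem176b had opposite signs in the 2 libraries for all members together, with log2 ratios of 0.0318 in WT and -0.0126 in KO. Both signs changed under other settings. The difference between the libraries was not tested, since each is 1 library.

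Cells that the gate left out, which no comparison uses, also held respiratory chain UMIs. Cells with no T cell UMI and fewer than 3 myeloid or B cell UMIs made up 6.63% of the filtered WT library and 3.04% of the filtered KO library. They gave 0.5003% and 0.584% of their UMIs to the 93 genes, at median depths of 1173 and 1132.5 UMIs. Cells with 3 or more myeloid or B cell UMIs made up 4.07% in WT and 1.13% in KO, gave 1.57% and 1.67%, and held Tmem176b in 31.4% and 32.0% of cells.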

How the results depend on the processing

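No paired analysis was possible because WT and KO have a single library each. Values are log2 ratios of all members. The Tcrg-V6-only over Tcrg-V4-only, KO Tcrg-V1 and Tmem176b ratios stayed above 0 in every alternative run, at 0.08 to 0.16 (Tcrg-V6-only over Tcrg-V4-only), 0.02 to 0.14 (KO Tcrg-V1 over Tcrg-V6-only), 0.17 to 0.25 (over Tcrg-V4-only), 0.10 to 0.25 (Tmem176b in WT) and 0.06 to 0.18 (in KO). Those that left their counting interval follow. Without ribosomal and mitochondrially encoded UMIs in the denominator they were 0.0799, 0.14 (KO Tcrg-V1 over Tcrg-V6-only), 0.10 (Tmem176b, WT) and 0.11 (KO), and for Ly6c2 0.14 in WT and, reversed, 0.0320 in KO. In the alternative run on thinned cells they were 0.11, 0.17 (KO Tcrg-V1 over Tcrg-V4-only) and 0.13 (Tmem176b, WT), and for Ly6c2 in WT, reversed, -0.0351. With groups set on all UMIs before thinning, the Ly6c2 sign in WT did not reverse, at shares of 1.558% with and 1.547% without. The other thinned shares were then 1.75% (Tcrg-V6-only), 1.59% (Tcrg-V4-only) and 1.83% (KO Tcrg-V1), and 1.72% and 1.55% in WT with and without Tmem176b. At 2500 to 4500 UMIs KO Tcrg-V1 gave 0.0247 and 0.18 and Ly6c2 in WT, reversed, -0.0126. Cells with Xist and no Y-linked UMI gave 0.11, 0.13 and 0.25. Means over cells gave 0.0451 and 0.20 for KO Tcrg-V1, 0.21 and 0.17 for Tmem176b, and 0.10 and, reversed, 0.0397 for Ly6c2. With 2 or more UMIs of the defining gene KO Tcrg-V1 gave 0.10 and 0.25 and Tmem176b 0.19 and 0.18. KO cells with Tcrg-V1 only gave 0.0423 and 0.20. Without the gate, Tmem176b in WT gave 0.21 and Ly6c2 0.12 and, reversed, 0.00247. Without high-stress cells Tmem176b gave 0.21 and 0.17 and Ly6c2 in KO -0.0264. With Tmem176b ignored, Ly6c2 gave, reversed in WT, -0.0765 and -0.0537. Leaving out the top member of each complex gave 0.0852 for KO Tcrg-V1 over Tcrg-V6-only. Chosen after seeing the data, cells under 2500 UMIs gave 0.25 and 0.0555 for Tmem176b, cells over 4500 gave 0.13 and 0.13, and without Atp5md KO Tcrg-V1 over Tcrg-V6-only gave 0.0887 and Tmem176b 0.14 and 0.12. The causes were not tested. At a limit of 1.5-fold the members higher went from 17 to 0 (Tcrg-V6-only over Tcrg-V4-only), 11 to 2 and 28 to 2 (KO Tcrg-V1), and 23 to 4 and 12 to 1 (Tmem176b), and those lower in Tmem176b+ cells from 3 to 0 in WT and 3 to 1 in KO. With at least 300 UMIs, Ly6c2 calls in WT went from 4 to 2 higher and 3 to 1 lower.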

Other observations

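The mitochondrially encoded complex I subunit gene mt-Nd3, noticed after its values were seen, had 206 UMIs in WT (24.9 CPM) and 1669 in KO (66.0 CPM). It had 24.8 CPM in Tcrg-V6-only, 22.3 in Tcrg-V4-only and 66.3 in KO Tcrg-V1 cells. The log2 ratios over the WT groups were 1.42 and 1.57, against -0.16 to 0.44 for the other 12 mitochondrially encoded genes over both groups. Within a library it did not differ in this way, with 22.9 CPM in WT Tmem176b+ and 27.1 in WT Tmem176b- cells, and 67.2 and 65.6 in KO.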
